A study of Mus musculus with 4 samples.

Results

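The genes of serine synthesis and of the folate cycle that takes its carbon from serine were followed in mouse leukaemia cells with a conditional knockout of Ybx1 and in wild-type leukaemia cells. They were the rows of the deposited expression table with the symbols Phgdh, Psat1, Psph, Shmt1, Shmt2, Mthfd1, Mthfd1l and Mthfd2, 8 of 28141 genes, and all 8 were found. The study sequenced polyadenylated RNA of leukaemia cells taken from the bone marrow of C57BL/6 mice. There were 2 groups of 2 libraries, 1 from leukaemia cells with a conditional knockout of Ybx1 (YBX1cKO) and 1 from wild-type leukaemia cells (WT). The product of Ybx1 is a cold-shock domain protein that binds DNA and RNA. The Cre that deletes Ybx1, the way the leukaemia was started and the age of the mice are not stated in the labels. Neither was whether a library held 1 animal or several, so the p-values rest on the spread between libraries of a group, which may be technical. The series title places the cells, labelled LSCs, among leukaemia stem cells of chronic myeloid leukaemia. Of 12 stem and progenitor markers, Kit, Cd34, Flt3 and Meis1 have no row here, and the label could not be checked on them. The 8 that were tested spanned a wide range: Mecom was the highest, with log2 levels of 11.07 and 11.15 in YBX1cKO and 11.72 and 11.71 in WT, and Hoxa9 the lowest by its means, with 0.54 and 0.97 in YBX1cKO and 0.66 and 1.48 in WT. Gata2 (10.55 and 10.56 in YBX1cKO, 10.95 and 11.03 in WT) and Cd48 (9.46 and 9.32 in YBX1cKO, 9.47 and 9.42 in WT) stood near the top. The 8 tested monocyte and macrophage markers also ranged widely, with Adgre1 at 15.90 and 15.93 in YBX1cKO and 15.81 and 15.83 in WT, and Ms4a6c at 2.92 and 2.49 in YBX1cKO and 4.10 and 4.45 in WT.

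Cells make serine from a glycolytic intermediate in a series of reactions. PHGDH oxidises phosphoglycerate, PSAT1 transfers an amino group to the product, and PSPH removes the phosphate to leave serine. Serine hydroxymethyltransferase then moves a carbon from serine to tetrahydrofolate and leaves glycine, by SHMT1 in the cytosol and SHMT2 in mitochondria. MTHFD enzymes oxidise or reduce that carbon or release it as formate: MTHFD2 and MTHFD1L act in mitochondria, and MTHFD1 uses the formate in the cytosol. The carbon serves the synthesis of purines, thymidylate and methionine, which dividing cells need in quantity.

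The deposited values were on a log scale whose base was not stated. Log2 levels here are those values multiplied by 0.693, because of the readings tried that one fitted the scatter between replicates best. As plain log2, all log2 levels and log2 fold changes below would grow 1.44 times, with the same limma p-values. Percents of the WT level, fold sizes, sums and levels per kilobase are back-transformed. They would also change, but not by that factor. Fold changes are YBX1cKO minus WT, from limma fitted on the 15527 genes that passed a low filter, with Benjamini-Hochberg adjustment over all of them and a threshold of 0.05. The back-transformed levels summed to 12104617 and 12134026 in the YBX1cKO libraries and 11157952 and 11074317 in the WT libraries, and depth is unknown since these are not known to be counts. Ybx1 itself had log2 levels of 8.19 and 8.13 in YBX1cKO and 9.31 and 9.41 in WT. Its log2 fold change was -1.20 (SE 0.08, limma adjusted p = 1.1e-11), 2.29-fold lower in YBX1cKO, so its RNA was reduced and not absent. The deleted part of the gene is not stated in the labels. In bulk samples, fewer cells of a type and less RNA per cell cannot be told apart.

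The pathway was lower in the YBX1cKO cells. Of the 8 genes 7 fell and 0 rose, and 1, Psph, did not pass the test. Of all tested genes 37.4% changed: 17.8% were lower and 19.5% were higher in YBX1cKO. The 7 that fell stood at percentiles 66.9 (Mthfd1l) to 97.9 (Phgdh) of mean level among tested genes. The share called among genes of like level was not computed. Both YBX1cKO libraries lay below both WT libraries for all 8 genes, as for 32.4% of all tested genes; 32.7% lay above in the same way, and 65.1% did not overlap in either direction. The log2 fold changes ran from -1.06 for Phgdh to -0.23 for Psph, with a median of -0.77, where the median over all tested genes was 0.0025. Summed, the 8 genes took 774 and 774 per 1000000 of the library sum in YBX1cKO and 1480 and 1540 per 1000000 in WT. Library sums were larger in YBX1cKO, so values per 1000000 make a fall look larger and a rise smaller than the log2 fold changes do.

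**Figure D1:**
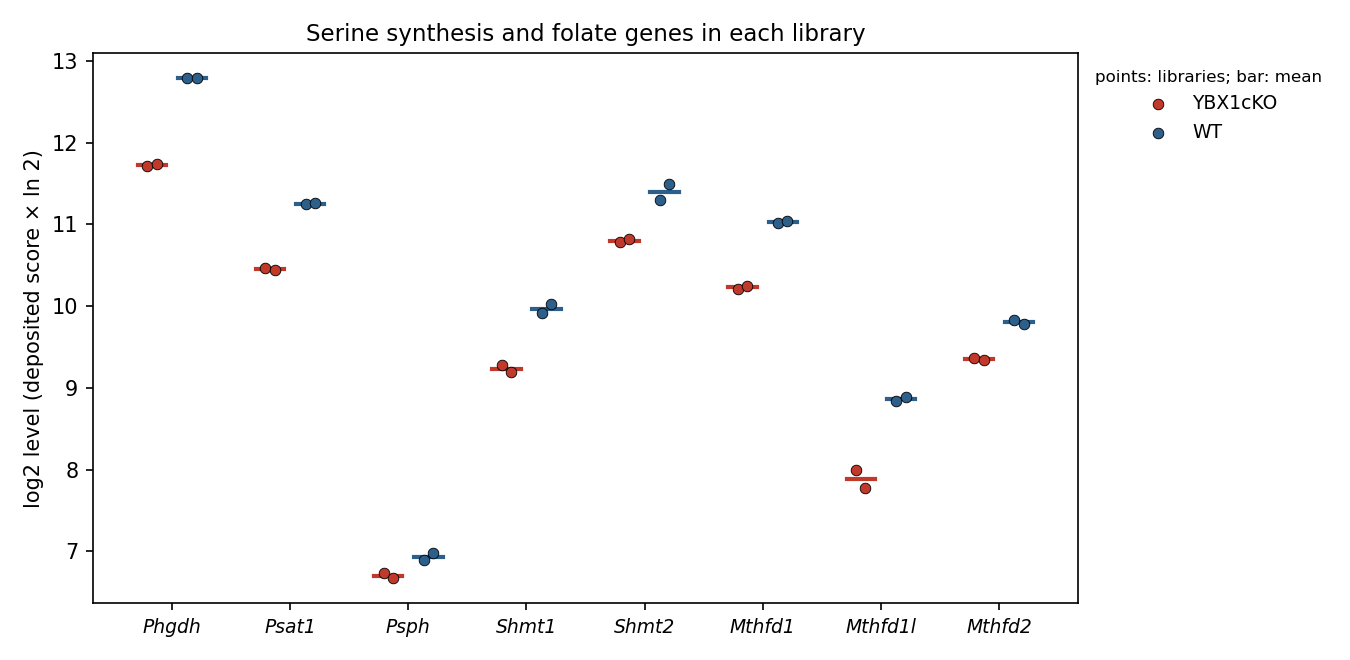
Log2 level of each gene (vertical axis, deposited score multiplied by ln 2) in each library, with YBX1cKO in red to the left of WT in blue, points for the libraries and bars for the mean of 2. The YBX1cKO points lie below the WT points for all 8 genes, with the widest gap for Phgdh and the narrowest for Psph.

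Of the serine synthesis genes, Phgdh and Psat1 fell and Psph did not pass. Phgdh, which encodes the first enzyme of the route, had log2 levels of 11.71 and 11.74 in YBX1cKO and 12.79 and 12.79 in WT. The groups stood more than 1 unit apart while the libraries within a group nearly coincided, so Phgdh was at 48% of its WT level (log2 fold change -1.06, SE 0.03, limma adjusted p = 1.1e-18). By the size of its moderated test statistic it ranked 42 among the 15527 genes. Psat1, the aminotransferase of the second step, had log2 levels of 10.47 and 10.44 in YBX1cKO and 11.25 and 11.26 in WT. It was at 57.7% of the WT level (log2 fold change -0.79, SE 0.04, limma adjusted p = 2.1e-13). Psph, the phosphatase of the last step, had log2 levels of 6.73 and 6.67 in YBX1cKO and 6.89 and 6.98 in WT. Its groups did not overlap, but genes at this level varied more between replicates, and the log2 fold change of -0.23 had a 95% interval from -0.55 to 0.09 (SE 0.15, limma adjusted p = 0.26). That interval leaves out the falls seen for Phgdh and Psat1 and does not show that Psph stayed the same.

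Reads of Phgdh and Psph may be shared with other genes. Phgdh lies on chromosome 3 from 98313170 to 98339990 in GRCm38, and 8 annotated copies with a row matched its transcript over 754 to 1608 bases at 95.3% to 98.7% identity. Their highest log2 level was 2.29, in a WT library, against 12.79 for Phgdh, but how the authors counted reads that map to several places was not given. Psph lies on chromosome 5 from 129765558 to 129787449, and 452 bases, or 10.4% of its exon length, overlap exons of the chaperonin gene Cct6a on the other strand. Cct6a had log2 levels of 11.40 and 11.39 in YBX1cKO and 11.73 and 11.68 in WT, well above Psph. Whether counting used strand was not given, so part of the Psph value may come from Cct6a. The other overlaps were smaller: Shmt1 shared 4.74% of its exon length with Smcr8, Shmt2 shared 1.03% with Ndufa4l2 and Mthfd1 shared 0.833% with Gm47525.

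Both serine hydroxymethyltransferase genes fell. Shmt2, the mitochondrial form (chromosome 10, 127517123 to 127522444), had log2 levels of 10.78 and 10.82 in YBX1cKO and 11.30 and 11.49 in WT. Its WT libraries were the least alike of any of the 8 genes apart from the YBX1cKO libraries of Mthfd1l, and the gap between genotypes was several times that spread (log2 fold change -0.59, SE 0.05, limma adjusted p = 4.4e-10). Shmt1, the cytosolic form (chromosome 11, 60788104 to 60811718), had log2 levels of 9.28 and 9.19 in YBX1cKO and 9.92 and 10.02 in WT. It was at 60.0% of its WT level (log2 fold change -0.74, SE 0.06, limma adjusted p = 1.1e-09), and Shmt2 was at 66.4%.

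All 3 MTHFD genes among the 8 fell, in the cytosol and in mitochondria. Mthfd1, the cytosolic enzyme that carries formate back into the folate pool (chromosome 12, 76255298 to 76319803), had log2 levels of 10.21 and 10.25 in YBX1cKO and 11.02 and 11.04 in WT. It was at 57.3% of its WT level (log2 fold change -0.80, SE 0.05, limma adjusted p = 5.9e-13). Mthfd1l, which releases formate in mitochondria (chromosome 10, 3973118 to 4167081), had log2 levels of 8.0 and 7.77 in YBX1cKO and 8.84 and 8.89 in WT. It was at 50.6% of its WT level (log2 fold change -0.98, SE 0.10, limma adjusted p = 8.4e-09), although the YBX1cKO libraries differed by more than the WT libraries did. Mthfd2, the mitochondrial dehydrogenase and cyclohydrolase that is low in most adult tissues and high in many tumours (chromosome 6, 83305691 to 83325908), had log2 levels of 9.37 and 9.34 in YBX1cKO and 9.83 and 9.78 in WT. It was at 73.1% of its WT level, the smallest fall among the 7 (log2 fold change -0.45, SE 0.06, limma adjusted p = 1.8e-06). Its relative Mthfd2l, which is not among the 8, stayed near the lower end of the tested range, with log2 levels of 0.27 and 0.76 in YBX1cKO and 1.26 and 0.55 in WT.

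**Figure D2:**
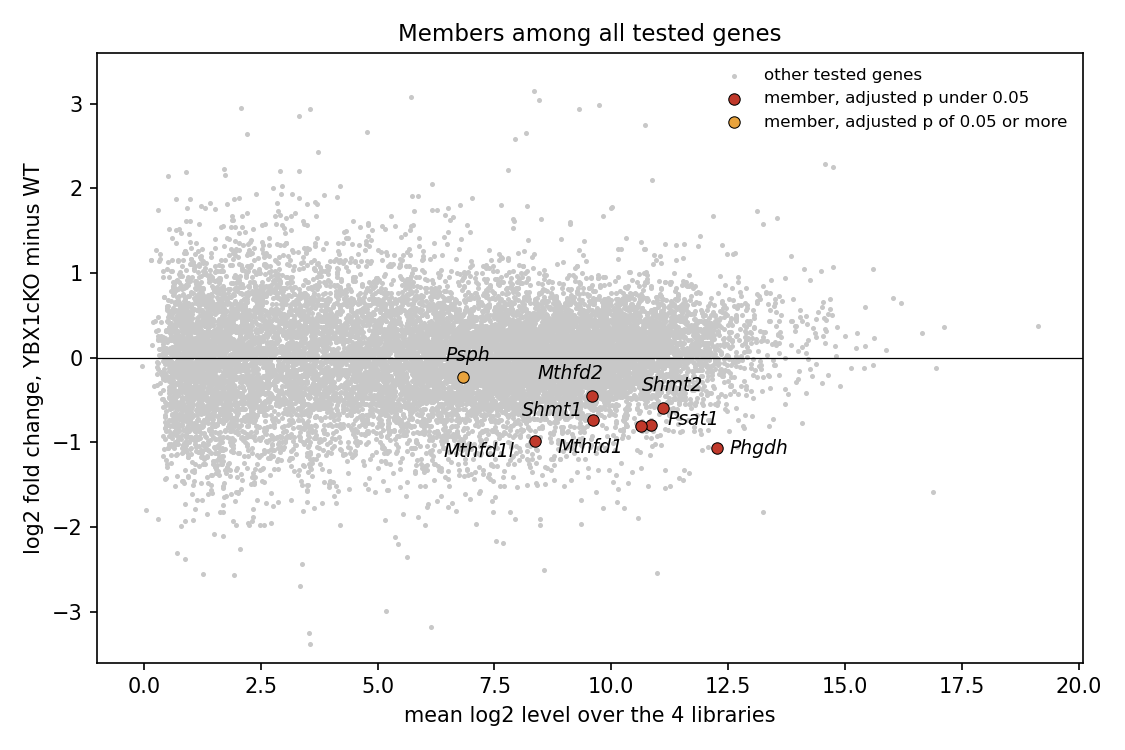
Log2 fold change of YBX1cKO minus WT (vertical axis) against the mean log2 level over the 4 libraries (horizontal axis) for all 15527 tested genes in grey and the 8 members in colour. The 7 members that fell lie between -0.45 and -1.06, and Psph, the member at the lowest level, lies at -0.23.

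Levels of different genes were compared per kilobase of exon and per 1000000 of the library sum. On that scale Phgdh was the highest of the 8, at 112 ± 1.46 in YBX1cKO and 256 ± 1.36 in WT (SD, n = 2 each). Shmt2 followed at 47.3 ± 0.847 in YBX1cKO and 78.1 ± 7.68 in WT, and then Psat1 at 27.2 ± 0.447 in YBX1cKO and 51.7 ± 0.528 in WT. Mthfd1 stood at 22.3 ± 0.399 in YBX1cKO and 42.4 ± 0.64 in WT. The next places changed hands between the genotypes: Mthfd2 stood at 15.5 ± 0.254 in YBX1cKO and 23.1 ± 0.443 in WT, and Shmt1 at 12.8 ± 0.587 in YBX1cKO and 23.3 ± 1.26 in WT. These neighbours lay within their spread in WT, and in YBX1cKO both libraries of Mthfd2 were above both of Shmt1. Mthfd1l stood at 4.41 ± 0.504 in YBX1cKO and 9.46 ± 0.282 in WT. Psph was the lowest, at 1.98 ± 0.0617 in YBX1cKO and 2.54 ± 0.126 in WT. The exon length is that of all annotated exons of a gene together, so genes with long rarely used exons come out too low.

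Whether enzymes of the same step or route fell by the same amount was asked within each library, where scaling between libraries drops out. The log2 level of Mthfd2 minus that of Mthfd1l was 1.37 and 1.57 in YBX1cKO and 0.99 and 0.89 in WT, a difference of 0.53. Mthfd2 minus Mthfd1 was -0.84 and -0.91 in YBX1cKO and -1.19 and -1.25 in WT, a difference of 0.35. In both pairs Mthfd2 stood higher relative to its partner in YBX1cKO, with no overlap of the groups. For the serine hydroxymethyltransferases, Shmt2 minus Shmt1 was 1.5 and 1.64 in YBX1cKO and 1.38 and 1.47 in WT, a difference of 0.14 that is close to the gap between libraries of 1 group and ran from 0.08 to 0.21 with a library left out. Mthfd1l minus Mthfd1 was -2.21 and -2.48 in YBX1cKO and -2.18 and -2.15 in WT, a difference of -0.18, which was -0.04 without YBX1cKO replicate 2 and -0.32 without YBX1cKO replicate 1. In the serine route, Phgdh minus Psph was 4.98 and 5.07 in YBX1cKO and 5.90 and 5.81 in WT, a difference of -0.83. Phgdh minus Psat1 was 1.24 and 1.29 in YBX1cKO and 1.54 and 1.53 in WT, a difference of -0.26. An exact two-sided permutation test over the 4 libraries gave p = 0.333 for each of these 6 pairs, the smallest value this test allows with 4 libraries, and 0.389 when adjusted over the 7 pairs compared. The other pair, Mthfd2 minus Mthfd2l, overlapped between the groups (difference -0.06, exact p = 1, adjusted 1). No pair could therefore pass the threshold by this test, whatever its size.

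**Figure D3:**
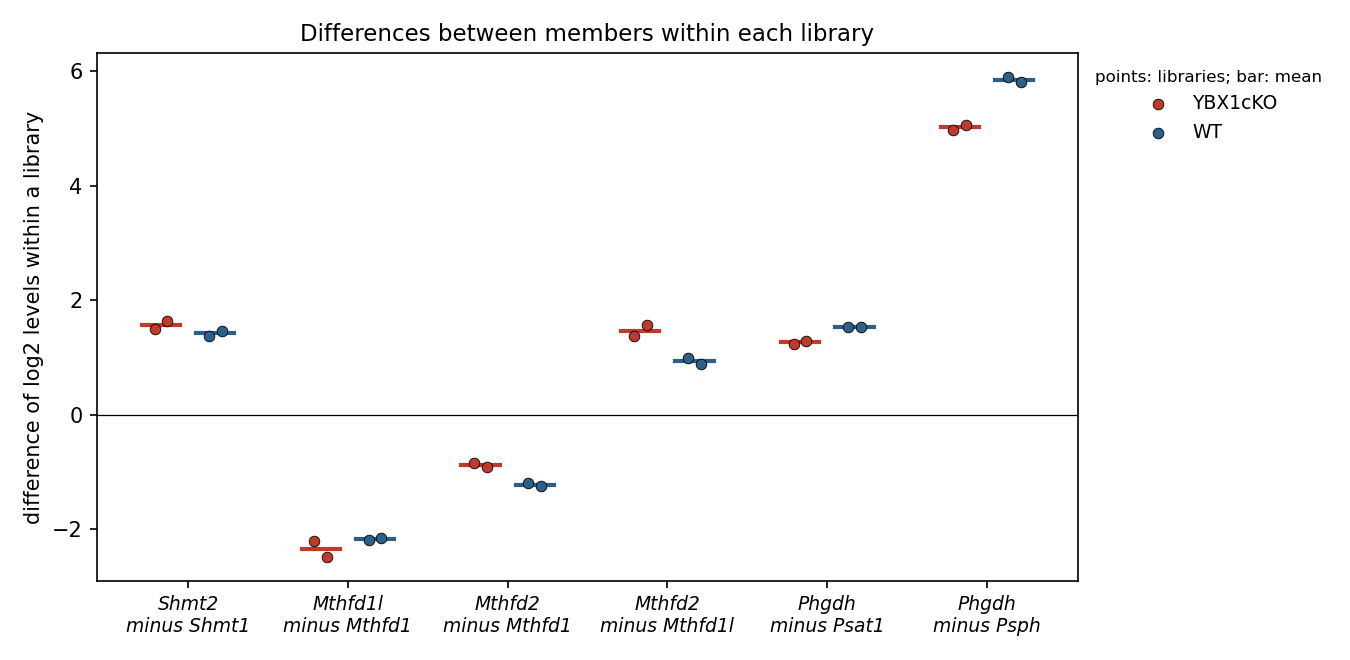
Difference of the log2 levels of 2 members within a library (vertical axis) for 6 pairs, with YBX1cKO in red to the left of WT in blue, points for libraries and bars for the mean of 2. The groups are furthest apart for Phgdh minus Psph, at 5.02 in YBX1cKO and 5.85 in WT, and nearest for Shmt2 minus Shmt1.

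The other genes of the folate cycle and of folate transport went both ways. Of 14 tested, 4 fell and 4 rose, with a median log2 fold change of -0.08. Tyms, the thymidylate synthase that spends methylene-tetrahydrofolate, had log2 levels of 10.30 and 10.24 in YBX1cKO and 11.08 and 11.06 in WT (log2 fold change -0.80, SE 0.05, limma adjusted p = 5.8e-13). Slc19a1, the reduced folate carrier of the plasma membrane, had a log2 fold change of -0.94 (SE 0.10, limma adjusted p = 3.5e-08). In the opposite direction, Mthfs, which returns formyl-tetrahydrofolate to the cycle, had log2 levels of 8.36 and 8.20 in YBX1cKO and 7.44 and 7.42 in WT (log2 fold change 0.85, SE 0.11, limma adjusted p = 6.5e-07). Ggh, the hydrolase that removes glutamates from folates, rose by 0.31 (SE 0.04, limma adjusted p = 4.7e-07).

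Genes for the further use of serine, glycine and methionine moved unevenly. Of 10 tested genes for glycine cleavage and other uses of serine or glycine, 2 fell and 3 rose, with a median of 0.01. Amt, the aminomethyltransferase of the glycine cleavage system, had log2 levels of 6.64 and 6.58 in YBX1cKO and 5.62 and 5.08 in WT (log2 fold change 1.26, SE 0.22, limma adjusted p = 4.7e-05). Sptlc2, a subunit of the serine palmitoyltransferase that starts sphingolipid synthesis, rose by 0.33 (SE 0.04), and Srr, serine racemase, by 0.47 (SE 0.15, limma adjusted p = 0.013), a call lost without WT replicate 1 and with no filter on low genes. Alas1, which uses glycine for haem synthesis, fell by 0.43 on the log2 scale (SE 0.02).

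Of 12 tested genes of the methionine cycle and transsulfuration, 6 fell and 1 rose, with a median of -0.47. Mat2a, the catalytic subunit that makes S-adenosylmethionine, had log2 levels of 11.24 and 11.28 in YBX1cKO and 12.03 and 11.97 in WT (log2 fold change -0.74, SE 0.04, limma adjusted p = 3.9e-14), while Mat2b, its regulatory subunit, was the 1 that rose, by 0.43 (SE 0.03). Mtap, which salvages methionine, fell by 0.85 on the log2 scale (SE 0.04), and Ahcyl1, an adenosylhomocysteinase-like gene, by 0.54 (SE 0.09).

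Amino acid transporters also split. Of 12 tested, 6 fell and 4 rose, with a median of -0.13. Sfxn1, the mitochondrial serine carrier, had log2 levels of 11.24 and 11.29 in YBX1cKO and 11.73 and 11.77 in WT (log2 fold change -0.49, SE 0.04, limma adjusted p = 1.3e-10). Its relative Sfxn3 had 12.15 and 12.15 in YBX1cKO and 11.51 and 11.47 in WT, a rise of 0.66 (SE 0.03, limma adjusted p = 7.8e-14). Slc1a5, a carrier of neutral amino acids including serine, fell by 0.49 on the log2 scale (SE 0.04), and Slc7a11, the cystine carrier, rose by 0.45 (SE 0.03).

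Purine synthesis, which takes formyl groups from the folate cycle, was mostly lower. Of 13 tested genes 10 fell and 1, Adss, rose (log2 fold change 0.30, SE 0.04), with a median of -0.46. Impdh2, on the branch to guanine nucleotides, had log2 levels of 9.85 and 9.83 in YBX1cKO and 10.67 and 10.69 in WT (log2 fold change -0.84, SE 0.05, limma adjusted p = 1.5e-12). Gart, which encodes an enzyme that uses formyl-tetrahydrofolate, fell by 0.64 on the log2 scale (SE 0.04), and Adsl by 0.71 (SE 0.05). Gmps had a log2 fold change of -0.56 (SE 0.06). Glycolysis supplies the phosphoglycerate for serine, and its later steps lie beyond that point. The 7 glycolysis genes from aldolase to pyruvate kinase gave 3 falls and 3 rises with a median of -0.04. Among the falls, log2 fold changes were -0.56 (SE 0.03) for Tpi1, -0.47 (SE 0.03) for Gapdh and -0.33 (SE 0.02) for Eno1. Aldoa had a log2 fold change of 0.29 (SE 0.02), which lost its call and turned to -0.03 under quantile normalization.

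**Figure D4:**
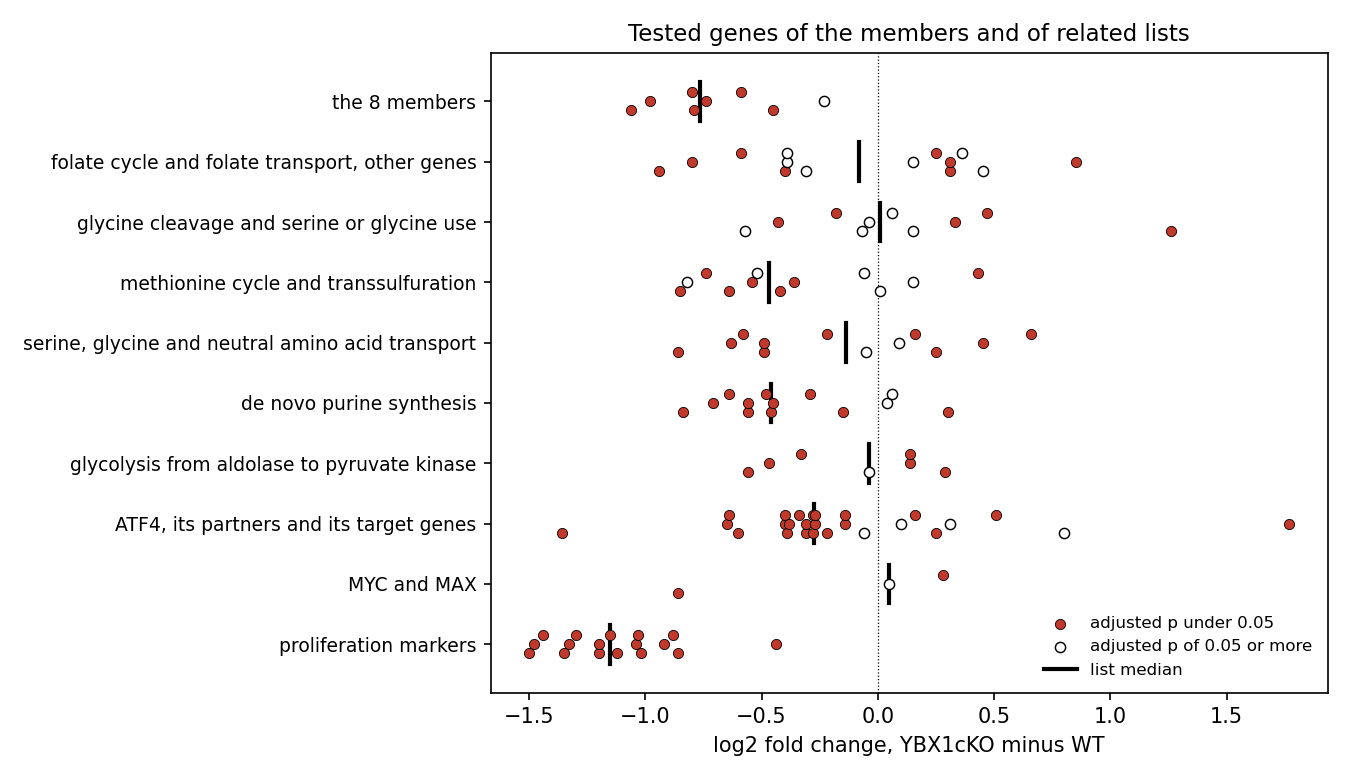
Log2 fold change of YBX1cKO minus WT (horizontal axis) for each tested gene of the 8 members and of 9 related lists, filled in red where the limma adjusted p was under 0.05 and open otherwise, with a black bar at the median of each list. The medians of the members and of the proliferation markers are the lowest, at -0.77 and -1.15, and the other folate genes spread to both sides of 0.

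Phgdh, Psat1, Shmt2 and Mthfd2 are known targets of ATF4, the transcription factor of the amino acid stress response, and several of the 8 genes are known to respond to MYC. Of 26 tested genes of ATF4, its partners and its targets other than the 8, 18 fell and 4 rose, with a median of -0.27. Atf4 had log2 levels of 9.18 and 9.35 in YBX1cKO and 9.47 and 9.60 in WT (log2 fold change -0.27, SE 0.07, limma adjusted p = 4.4e-03), a call lost without WT replicate 2 and with no filter on low genes. Asns, the asparagine synthetase, fell by 0.60 on the log2 scale (SE 0.05), and the aminoacyl-tRNA synthetase genes Iars and Eprs by 0.64 (SE 0.05) and 0.39 (SE 0.03). Nupr1, a stress-induced chromatin protein, rose by 1.77 (SE 0.05). Myc had log2 levels of 12.07 and 12.12 in YBX1cKO and 12.95 and 12.95 in WT (log2 fold change -0.86, SE 0.03, limma adjusted p = 2.8e-17), Mycn rose by 0.28 (SE 0.04), and their partner Max had a log2 fold change of 0.05 (SE 0.10, limma adjusted p = 0.75). When the prior variance was not allowed to follow the level, the calls of Ggh, Amt, Sptlc2, Srr, Adss, Eno1, Aldoa, Eprs, Atf4 and Mycn were lost, while those of the 7 members held.

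Markers of dividing and of mature cells moved beside these genes. All 17 proliferation markers fell (median -1.15 on the log2 scale), and together they took 1310 and 1330 per 1000000 of the library sum in YBX1cKO and 3030 and 3050 in WT. Of the 7 neutrophil markers tested 5 rose and 1 fell, and their sum was 1280 and 1300 per 1000000 in YBX1cKO and 496 and 532 in WT. Mmp8 and Mmp9 together made up 1040 and 1050 of it in YBX1cKO and 282 and 303 in WT, and the other 5 genes 239 and 247 in YBX1cKO and 214 and 229 in WT. A further 12 neutrophil markers, among them S100a8, S100a9, Ly6g and Mpo, had no row. Of the 8 monocyte and macrophage markers tested 5 rose and 1 fell, with a sum of 10600 per 1000000 in each YBX1cKO library and 6660 and 6770 in WT. Lyz2, the lysozyme gene, made up 4940 and 4880 of it in YBX1cKO and 1120 and 1130 in WT. The other 7 genes together made up 5660 and 5750 in YBX1cKO and 5540 and 5640 in WT, most of it Adgre1. Cd14, Cd68 and Ccr2 also rose, by 1.17 (SE 0.05), 0.77 (SE 0.03) and 0.63 (SE 0.06) on the log2 scale. The rise of Adgre1 was only 0.09 (log2, SE 0.02) and depends on scaling, since per 1000000 of the library sum it took 5050 and 5140 in YBX1cKO and 5170 and 5260 in WT. The 1 that fell was Ms4a6c (log2 fold change -1.57, SE 0.39). Of the 8 stem and progenitor markers tested 3 fell and 0 rose, with sums of 379 and 384 per 1000000 in YBX1cKO and 568 and 579 in WT. The 4 erythroid markers tested gave 3 falls and 0 rises, with sums of 141 and 132 per 1000000 in YBX1cKO and 197 and 189 in WT. The 2 T and NK cell markers with a row, Gzmb and Lat, fell, with sums of 59.7 and 63.7 per 1000000 in YBX1cKO and 136 and 137 in WT. The 1 B cell marker with a row, Cd79b, rose, at 26.4 and 24 per 1000000 in YBX1cKO and 22 and 23.9 in WT. The defining markers Cd3e, Cd8a and Ms4a1 had no row. The part of any of these in the fall of the 8 genes was not tested.

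The tested genes nearest in pattern were found by the distance between log2 levels in the 4 libraries, each centred on its own mean. Since the genotypes differ far more than the replicates, this mostly finds genes with the same fold change. Nearest to Phgdh were Tomm20 (distance 0.033) and Trip13 (0.035), and nearest to Psat1 were Rad54l (0.028) and Ly6e (0.03). Psph lay nearest to Eef1aknmt (0.023) and Fam53a (0.024), Shmt1 to Tmem144 (0.035) and Met (0.043), and Shmt2 to Sec61g (0.025) and Alg6 (0.033). Mthfd1 lay nearest to Rbmxl1 (0.019) and Gmfb (0.022), Mthfd1l to Chsy1 (0.049) and Ccne1 (0.058), and Mthfd2 to Ivns1abp (0.012) and Hdac3 (0.013).

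Since 7 of the 8 genes fell together, their promoters are shown for what they share. The Y-box that gave Ybx1 its name is CTGATTGG, which contains ATTGG, the reverse complement of a CCAAT box, so every match of the Y-box is also a CCAAT match. The 250 bases before the RefSeq start sites in GRCm38.p6 were searched on both strands, and all 8 genes were matched. Psat1 has 2 promoters there, so a gene was counted if any of its promoters held a match, and the background is the share of the 10601 tested genes with a promoter that did so. CCAAT was found for 6 of the 8, against 40.3% of tested genes. CTGATTGG was found for 4 of the 8 (Psph, Shmt1, Mthfd1 and Mthfd2), against 6.45% of tested genes. Shmt2 and Mthfd1l, which fell, had no CCAAT match, and Psph, which did not pass the test, had a Y-box match. Whether these letters bear on the fold changes was not tested. TGATGNAA, the form of the C/EBP-ATF element bound by ATF4, was found for 0 of the 8, against 2.49% of tested genes. The E-box CACGTG, bound by MYC and MAX, was also found for 0 of the 8, against 9.39% of tested genes. Counted per promoter over all 32851 in the table, tested or not, the shares were 33.8% for CCAAT, 3.83% for CTGATTGG, 3.45% for TGATGNAA and 6.02% for CACGTG. A match is a run of letters and not a binding site, and no match says only that these letters are not in this window. For Psat1, Shmt1 and Mthfd2 the windows lay inside the gene span of GENCODE M21, so starts annotated further upstream were not searched. Capitals mark CCAAT or ATTGG. Phgdh is shown for CCAAT without a Y-box, the 4 genes with a Y-box for its place in each, and Shmt2 for having neither.
Phgdh, chr3:98339970-98340219, minus strand: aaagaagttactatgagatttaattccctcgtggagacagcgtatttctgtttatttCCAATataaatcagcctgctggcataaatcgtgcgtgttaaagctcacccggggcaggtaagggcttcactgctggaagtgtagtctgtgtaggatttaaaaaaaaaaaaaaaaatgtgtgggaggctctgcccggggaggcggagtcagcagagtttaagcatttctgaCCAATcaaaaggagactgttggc
Psph, chr5:129787254-129787503, minus strand: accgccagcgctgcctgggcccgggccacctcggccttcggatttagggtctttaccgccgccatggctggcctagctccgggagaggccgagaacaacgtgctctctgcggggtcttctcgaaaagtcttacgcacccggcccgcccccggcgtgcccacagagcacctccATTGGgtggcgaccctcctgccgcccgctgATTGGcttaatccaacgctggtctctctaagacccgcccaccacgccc
Shmt1, chr11:60811266-60811515, minus strand: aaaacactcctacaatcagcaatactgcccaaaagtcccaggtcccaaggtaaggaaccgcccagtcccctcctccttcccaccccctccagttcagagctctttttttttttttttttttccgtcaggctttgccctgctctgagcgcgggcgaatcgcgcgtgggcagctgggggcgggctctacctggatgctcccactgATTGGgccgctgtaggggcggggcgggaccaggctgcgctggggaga
Shmt2, chr10:127522445-127522694, minus strand: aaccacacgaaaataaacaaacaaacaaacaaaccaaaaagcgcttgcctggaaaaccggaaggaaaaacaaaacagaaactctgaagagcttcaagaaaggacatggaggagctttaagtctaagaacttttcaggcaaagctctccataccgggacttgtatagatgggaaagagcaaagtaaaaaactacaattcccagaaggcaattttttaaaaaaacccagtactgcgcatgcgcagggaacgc
Mthfd1, chr12:76254982-76255231, plus strand: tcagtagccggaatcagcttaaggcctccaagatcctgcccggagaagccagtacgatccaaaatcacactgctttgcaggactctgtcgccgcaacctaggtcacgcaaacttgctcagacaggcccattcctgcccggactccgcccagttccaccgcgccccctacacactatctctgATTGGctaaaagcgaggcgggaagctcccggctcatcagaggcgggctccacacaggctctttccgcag
Mthfd2, chr6:83317605-83317854, minus strand: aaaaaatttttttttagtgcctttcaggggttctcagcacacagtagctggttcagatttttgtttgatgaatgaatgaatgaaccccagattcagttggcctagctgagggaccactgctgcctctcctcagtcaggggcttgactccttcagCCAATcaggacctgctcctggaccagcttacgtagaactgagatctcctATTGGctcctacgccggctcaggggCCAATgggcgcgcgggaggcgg

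The distances of these letters from the start sites are given below, and their relation to the fold changes was not tested. The CCAAT or ATTGG nearest to the start began 23 bases before it in Phgdh and 6 before 1 start site of Psat1. It began 48 bases before the start in Psph, 47 in Shmt1, 69 in Mthfd1 and 22 in Mthfd2. The Y-box began 51 bases before the start in Psph, 50 in Shmt1 and 72 in Mthfd1, each reading CTGATTGG on the strand shown, and 96 bases before it in Mthfd2, where the strand shown reads its reverse complement. Psat1 had 2 start sites in RefSeq, with 2 CCAAT matches before 1 of them and 0 before the other.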

How the data were processed

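RNA-seq was analysed for 2 YBX1cKO and 2 WT libraries. Per the labels' protocols, polyadenylated RNA was isolated with oligo dT beads, fragmented and randomly primed. The submitters' processing notes name HISAT2 2.1.0, featureCounts, DESeq2 and CASAVA and the build GRCm38, without saying what each did. The deposited table holds 1 score per gene and library, from -3.19 to 27.9, on a log scale that the authors did not state in the sources used here; columns matched samples by title. If scores are log2 levels times 1.44, the noise between replicates was 1.31 (YBX1cKO) and 1.10 (WT) times Poisson noise, against 5.94 and 4.85 for plain log2, whose top level would be 2.48e+08. Scores were therefore multiplied by 0.693. The slope of the same scatter against the level gave 1.59 (YBX1cKO) and 1.62 (WT) score units per doubling, against 1.44 for the factor used. Both estimates take the noise to fall with the level as it does for Poisson counts. Changes of low genes may be understated if the authors' transformation shrinks them.

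A gene entered the test if its score reached 1 in 2 or more libraries. The test was limma 3.58.1 in R 4.3.3, with the prior variance following the level, two-sided and without a replicate term. The 8 members, the related lists and the tests were chosen with earlier results of these data known. Named genes were the 8, Ybx1, Atf4 and Myc, and up to 4 genes with the smallest p-values of each related list plus the first in the rarer direction; Cct6a, the overlapping genes and listed markers were named after their values were seen. Positions and exon lengths come from GENCODE M21, copies from BLAST+ 2.17.0 at 95% identity over at least 100 bases, and promoters from RefSeq (GRCm38.p6). Python 3.11.15, pandas 2.3.3, numpy 2.4.6 and matplotlib 3.10.9 were used. The test was checked on simulated data.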

Additional observations from a re-analysis of the deposited data

How the results depend on the processing

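The count of 7 members that fell was the same under other filters and adjusted p thresholds of 0.01 and 0.10. It also held under quantile normalization, a median shift and a robust prior. A threshold of 0.10 could only add calls. Reading the scores as plain log2 leaves the limma p-values as they were, so it gave 7 too and was no check. With each library left out in turn, the log2 fold changes of these 7 ran from -1.10 for Mthfd1l to -0.43 for Mthfd2. Without a trend of the prior variance on the level the 7 calls held, but only just, with the highest adjusted p at 0.049 (limma) for Shmt2. When a log2 change of 1 or more was also required, 1 member, Phgdh, was called. The count over all genes was 5803; it was 854 with that fold requirement (372 higher, 482 lower), smaller by construction, and 2267 without the trend (1177 higher, 1090 lower), for which the cause was not tested. All other settings gave 3941 to 6653, and leaving out a library gave 4662 to 5803. Psph was called in no setting, with adjusted p from 0.13 to 0.60. The count of 8 members whose groups do not overlap was also 8 under quantile normalization and a median shift. Leaving out a library or reading the scores as plain log2 cannot create an overlap, so those settings were no check of it. Within libraries, the difference of Mthfd2 minus Mthfd2l turned to 0.27 without WT replicate 2 and 0.20 without YBX1cKO replicate 2, and went to -0.39 without WT replicate 1. Max ran from -0.01 without WT replicate 1 to 0.11 without WT replicate 2, and Aldoa to -0.03 under quantile normalization. Deviations of the replicates numbered 1 from their group means correlated at 0.0127 over all tested genes, so no shift shared by replicate number was seen. With 2 libraries per group this cannot show whether the libraries were paired. With a replicate block 6026 genes and the same number of members, 7, were called.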
